A study of Mus musculus with 6 samples.

Results

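Id1 and Id2 encode small inhibitors of DNA binding that are switched on by bone morphogenetic protein (BMP) signalling, and their levels are described here in horizontal basal cells, the quiescent reserve stem cells of the mouse olfactory epithelium. The members were chosen by name, as 2 of the 8078 entries of the deposited expression table, and each has a value in all 6 libraries. All animals were 12 weeks old and of B6 background, and carried the KRT5-CreER driver together with the Ai9 reporter, a TdTomato allele behind a floxed stop. In these mice a tamoxifen-inducible Cre recombinase, driven by the keratin 5 promoter, removes the stop cassette and switches on the red fluorescent protein TdTomato. Tamoxifen was given 2 weeks before the cells were sorted on TdTomato, so every library, controls included, came from tamoxifen-treated reporter mice. The 3 uninjured libraries are from mice without a lesion. The 3 injured ones are from mice exposed to methyl bromide gas at 180 ppm for 8 h, which destroys most of the olfactory epithelium, and were taken 18 h later. Each library pooled cells of several animals and is the replicate here, and the sort takes any cell descended from one that expressed the keratin 5 driver.

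BMP ligands bring together type I and type II receptor kinases, which phosphorylate Smad1, Smad5 and Smad9. These Smads join Smad4 in the nucleus and activate Id genes within a short time, so that Id transcripts are widely used as a readout of the pathway. Id proteins have a helix-loop-helix dimerisation domain but no basic DNA-binding region. They pair with E proteins such as Tcf3, Tcf4 and Tcf12 and keep them from partnering with the basic helix-loop-helix factors that drive differentiation, including the neurogenic factors of the olfactory lineage. Secreted antagonists such as follistatin, and the inhibitory Smads, Smad6 and Smad7, which are themselves induced by the pathway, limit the signal.

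The promoter of Id2 is shown as the sequence around its transcription start, and stretches of the gene outside this window were not searched for Smad motifs. Of the 2 members, 1 matched the table of promoters by symbol, and Id3, a related gene that like Id1 stood lower in every injured library, is printed beside it. Both windows run from 250 bases before to 50 bases after the transcription start in RefSeq's annotation of build GRCm38.p6. That is not the mm9 build of the expression table, so these coordinates serve for the sequence alone. Letters in capitals mark GGCGCC, the GC-rich element that BMP-activated Smads bind, and GTCTG or its reverse complement CAGAC, which contain the core Smad4 element. Both strands were searched, and no match of one motif overlapped a match of the other.
Id2, chr12:25096043-25096342, minus strand: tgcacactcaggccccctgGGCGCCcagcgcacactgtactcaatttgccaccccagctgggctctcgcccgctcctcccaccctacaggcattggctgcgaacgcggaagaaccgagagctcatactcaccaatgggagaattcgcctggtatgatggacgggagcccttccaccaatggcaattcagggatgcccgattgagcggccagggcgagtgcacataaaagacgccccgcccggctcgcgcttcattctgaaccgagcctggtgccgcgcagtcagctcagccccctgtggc
Id3, chr4:136143572-136143871, plus strand: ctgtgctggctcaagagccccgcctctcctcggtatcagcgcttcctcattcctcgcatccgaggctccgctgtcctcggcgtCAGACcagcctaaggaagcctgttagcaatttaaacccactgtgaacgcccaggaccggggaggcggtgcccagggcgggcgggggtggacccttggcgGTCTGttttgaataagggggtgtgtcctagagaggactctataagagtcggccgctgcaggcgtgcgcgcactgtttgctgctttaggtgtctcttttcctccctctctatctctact
The Id2 window holds GGCGCC once, starting at -231 relative to the start site, and no GTCTG. The Id3 window holds GTCTG in either orientation at -167 and -68, and no GGCGCC. The window of Id4, not printed, holds GGCGCC once, at -148, and no GTCTG, as that of Id2 does. Among all 32851 promoter windows of the table, 11.9% held GGCGCC and 49.6% held GTCTG on either strand. These letters describe the windows and were not linked to any binding measurement.

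The values are taken to be FPKM, a level scaled to transcript length and library size, and read depth is not known. The sorted cells carried Trp63, the transcription factor that holds horizontal basal cells dormant, at 99.5 to 194 FPKM. Of 9 markers of horizontal basal cells 7 had an entry of their own, with a sum of 305 to 340 FPKM in uninjured and 197 to 403 in injured libraries. Markers of other cells were present as well. Their sums in uninjured and injured libraries were 111 to 135 and 59.7 to 69.3 FPKM for 4 of 7 sustentacular cell markers, 438 to 753 and 127 to 384 for 8 of 10 markers of mature neurons, and 3251 to 5173 and 1340 to 2867 for 5 of 8 respiratory markers. Most of the respiratory sum was Plunc, at 3023 to 4978 and 1182 to 2290 FPKM, and the other 4 markers overlapped between the groups. Most of the uninjured neuronal sum was Stoml3, at 316 to 561 FPKM. Of the 8 neuronal markers, 4 stood lower in every injured library than in any uninjured one, and the others overlapped. In injured replicate 2, Rtp1 and Calb2 were at 32.8 and 22.9 FPKM, against at most 14.3 and 5.02 in uninjured libraries. There Cnga2 and Gng13 were at 15.14 and 129 FPKM, near the highest uninjured values of 15.08 and 139. The sums were 221 to 358 and 148 to 246 for 5 of 9 stromal markers and 91.3 to 211 and 72.9 to 150 for 8 of 12 immune markers, and no marker in these lists was at the lowest value of the table in all 6 libraries. Injured replicate 2 stood apart in its markers of globose basal cells and neuronal precursors (8 of 9 with an entry), which summed to 497 FPKM against 35.2 and 42.0 in the other injured and 50.5 to 75.1 in the uninjured libraries. Markers of endothelial cells and of olfactory ensheathing cells were not analysed here. Xist, expressed from the inactive X chromosome of females, was at 27.0 to 33.8 FPKM in uninjured and 0.0645 to 0.561 in injured libraries. The Y-linked gene Eif2s3y was at 18.8, 2.73 and 2.55 FPKM in uninjured replicates 1 to 3 and at 23.0, 29.3 and 21.1 in injured ones, and Ddx3y at 6.67, 1.21 and 1.55 and at 7.74, 8.90 and 11.6. Uninjured replicate 1 thus held both Xist and Y-linked transcripts, near the injured level of the latter. The sex of the pools is not given in the labels, and it cannot be told apart from injury. The part of these differences in the Id values was not tested.

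Id1 stood lower in each of the 3 injured libraries than in any uninjured one, with a mean FPKM of 0.496 times theirs, whereas Id2 overlapped between the groups. Of all genes tested, 6.75% stood lower in every injured library than in any uninjured one, and 12.0% stood higher. Neither gene passed the threshold over all genes tested.

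Id1, a direct and much used target of BMP Smads, was at 61.3, 50.9 and 57.6 FPKM in uninjured replicates 1 to 3 (mean 56.6 ± 5.30, SD, n = 3). In injured replicates 1 to 3 it was at 21.6, 28.8 and 33.8 FPKM (28.1 ± 6.11, SD, n = 3). The groups did not overlap, and the highest injured library, replicate 3, lay well under the lowest uninjured one, replicate 2. A change is given throughout as the injured less the uninjured mean of log2(FPKM + 1), and for Id1 it was -1.004 (SE 0.27, 95% interval -1.61 to -0.40). In the limma fit across 7987 genes its unadjusted p was 0.00426 and its Benjamini-Hochberg adjusted p was 0.245, so it did not pass at 0.05. Only 1 gene, Xist, passed in this comparison, which is 0.0125% of the genes tested. With 1 library left out, 3, 3 and 2 genes passed without uninjured replicates 1 to 3 and 5, 365 and 1 without injured replicates 1 to 3, and Id1 was not among those past the threshold in any of these fits (adjusted p at least 0.0733). In the order of unadjusted p-values Id1 stood at place 137 of 7987. An exact permutation test over the 6 libraries gave a two-sided p = 0.10 for Id1, which is the smallest p that 3 libraries against 3 can give. In bulk libraries, fewer cells that express a gene and less RNA of it per cell cannot be told apart.

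Id2, which besides E proteins binds the retinoblastoma protein, was at 36.1, 28.1 and 32.4 FPKM in uninjured replicates 1 to 3 (32.2 ± 3.97, SD, n = 3). It was at 19.4, 28.5 and 34.8 FPKM in injured replicates 1 to 3 (27.6 ± 7.72, SD, n = 3). Injured replicate 1 lay below all uninjured libraries, replicate 2 among them and replicate 3 between the highest pair of them. The Id2 change was -0.25 (SE 0.29), with an adjusted p of 0.762 in the limma fit. Single libraries moved it: it was -0.02 without injured replicate 1, -0.43 without injured replicate 3 and -0.16 without uninjured replicate 1. Its 95% interval, -0.89 to 0.40, takes in both a decrease nearly as large as that estimated for Id1 and a small increase, so the data do not show that Id2 stayed at its level. The exact permutation p for Id2 was 0.50.

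**Figure D1:**
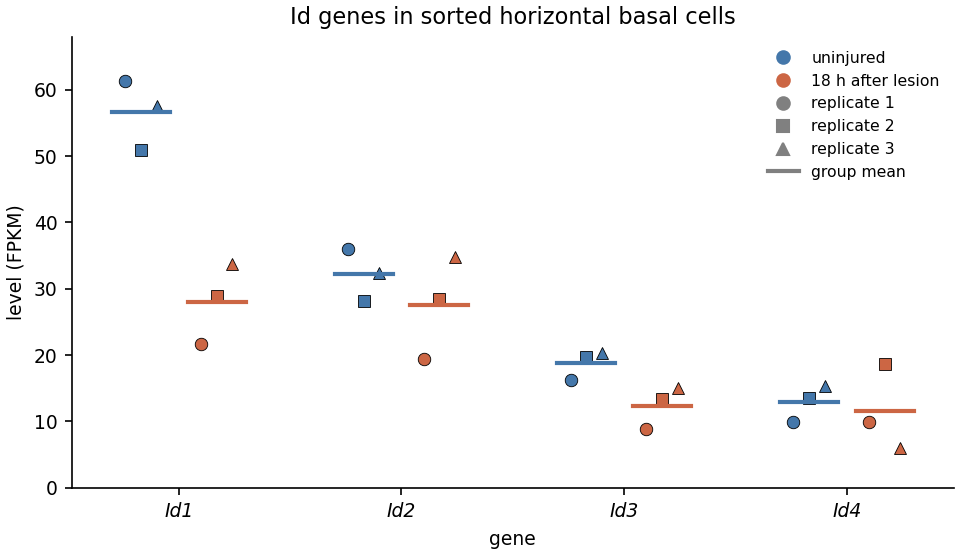
Levels of the Id genes in FPKM (vertical axis, from 0) in the 3 uninjured (blue) and 3 injured (orange) libraries; symbols mark the replicate and bars the group means. Id1 lies at 50.9 to 61.3 FPKM in uninjured and 21.6 to 33.8 in injured libraries with no overlap, while the Id2 and Id4 groups overlap.

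Id1 and Id2 were at nearly the same level in the injured libraries, whereas Id1 was the higher of the pair without injury. The ratio of Id1 to Id2 FPKM within a library, a comparison per length that a common scaling of that library cannot move, was 1.70, 1.81 and 1.78 in uninjured replicates 1 to 3. It was 1.11, 1.01 and 0.971 in injured replicates 1 to 3. The ratio thus varied little within each group (1.76 ± 0.0557 and 1.03 ± 0.0730, SD, n = 3 each), less than the level of either gene did, and the groups lay far apart for their spread. On the log2(FPKM + 1) scale the Id1 change was more negative than the Id2 change by a difference of -0.76. The log2 ratio was 0.80 ± 0.04 in uninjured and 0.04 ± 0.10 in injured libraries (SD, n = 3 each). The exact permutation test gave p = 0.10, again the smallest possible. Adjusted over the 3 permutation tests made (Id1, Id2 and their ratio), the exact p was 0.15 for Id1 and for the ratio and 0.50 for Id2. With any 1 library left out the difference stayed between -0.81 and -0.72.

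**Figure D2:**
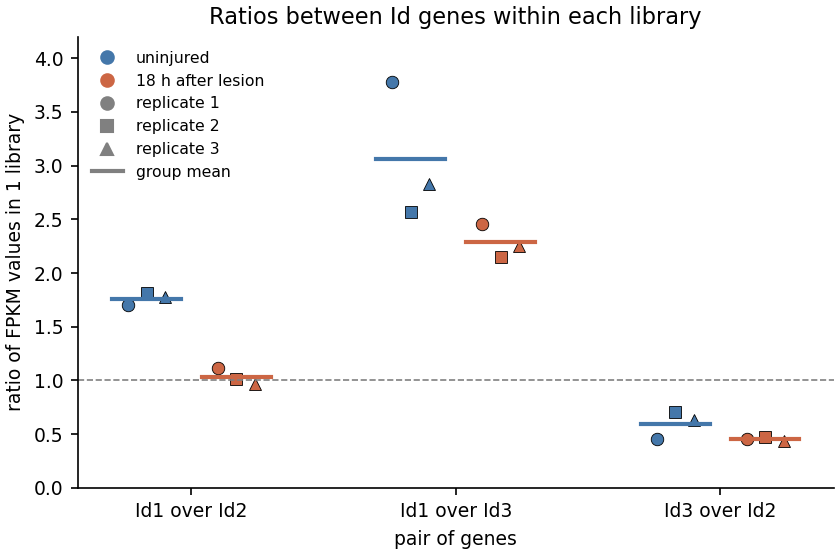
Ratio of FPKM values of pairs of Id genes within each library (vertical axis, no unit, dashed line at 1) for uninjured (blue) and injured (orange) libraries; symbols mark the replicate and bars the group means. Id1 over Id2 lies at 1.70 to 1.81 in uninjured and 0.971 to 1.11 in injured libraries.

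The order of the Id genes by FPKM was Id1, Id2, Id3, Id4 from the highest in all 3 uninjured libraries. In injured replicates 1 and 2 it was Id1, Id2, Id4, Id3, and in injured replicate 3 it was Id2, Id1, Id3, Id4. In the injured libraries Id1 and Id2 were therefore neighbours whose levels did not differ beyond their spread. Among all 8078 entries Id1 ranked 326, 498 and 426 from the top in uninjured replicates 1 to 3, and 1741, 962 and 1038 in injured replicates 1 to 3. Id2 ranked 674, 1024 and 890 and then 1937, 980 and 1009. Id1 thus lost places in every injured library, and Id2 left its uninjured range in replicate 1 only.

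Id3, a close relative and BMP target, was at 16.2, 19.8 and 20.4 FPKM in uninjured replicates 1 to 3 and at 8.80, 13.4 and 15.0 in injured ones. Its groups did not overlap, and its change was -0.59 (SE 0.27, limma adjusted p = 0.463). Id4, the remaining member of the family, was at 9.97, 13.6 and 15.3 FPKM before and at 9.93, 18.7 and 6.03 after injury, with overlapping groups (change -0.26, SE 0.37, limma adjusted p = 0.809, and a change of 0.09 without injured replicate 3). Id1 was also lower relative to Id3 in each injured library than in any uninjured one, with an Id1 to Id3 ratio of 3.77, 2.57 and 2.83 against 2.46, 2.15 and 2.25, although these groups nearly touch. The Id3 to Id2 ratio was 0.451, 0.704 and 0.628 in uninjured and 0.452, 0.470 and 0.432 in injured libraries, and the groups overlapped. The 4 Id genes together summed to 124, 112 and 126 FPKM in uninjured and 59.8, 89.5 and 89.6 in injured libraries. Injured replicate 1 had the lowest Id1, Id2 and Id3 of all 6 libraries.

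Relative spread was larger after injury for each Id gene. The coefficient of variation of FPKM was 9.35% in uninjured and 21.7% in injured libraries for Id1, and 12.3% and 28.0% for Id2. The limma fit assumes 1 variance for both groups. All genes together had a median change of 0.16, and against that shift Id1 lay at -1.16 and Id2 at -0.40. Of the genes tested, 3.28% had a change at or below that of Id1 and 21.0% at or below that of Id2. Id1 thus lies in the lower tail of the distribution of changes, and Id2 on its lower flank.

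**Figure D3:**
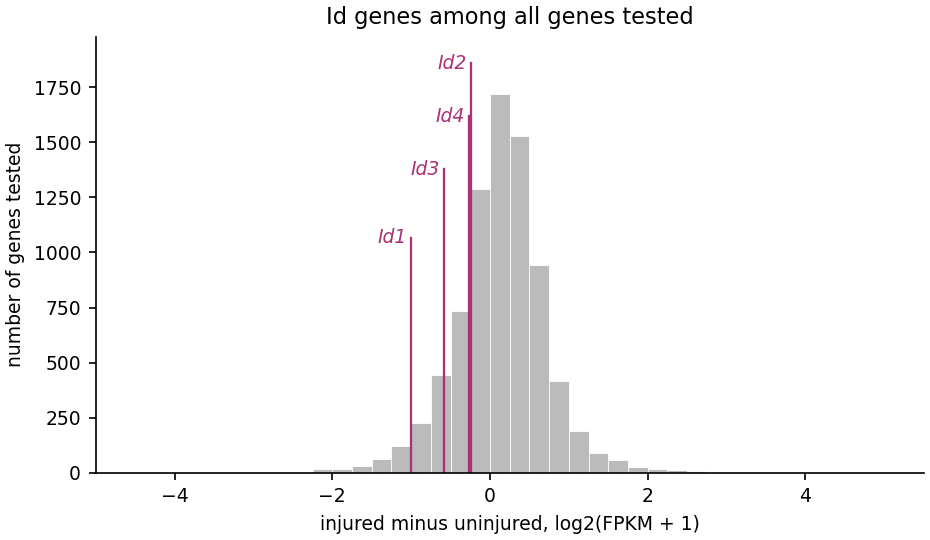
Number of genes tested (vertical axis) by change in log2(FPKM + 1), injured less uninjured (horizontal axis, bins of 0.25), with lines at the values of the Id genes (line heights carry no value). Id1 at -1.004 lies in the lower tail, and Id2 at -0.25 and Id4 at -0.26 lie just below the peak.

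The basal cell regulator Trp63 was itself at 157 to 194 FPKM in uninjured and 99.5 to 140 in injured libraries, with no overlap. The ratio of Id1 to Trp63 within a library, computed after the values were seen, was 0.328, 0.263 and 0.368 in uninjured and 0.192, 0.290 and 0.240 in injured replicates 1 to 3. These groups overlap, because injured replicate 2 lies above uninjured replicate 2. The ratio of Id2 to Trp63 was 0.193, 0.145 and 0.207 in uninjured and 0.173, 0.287 and 0.248 in injured libraries, which also overlap. Id1 was therefore separated between the groups relative to Id2 and Id3, but not relative to Id4 or Trp63.

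The genes most like Id1 across the 6 libraries, by Pearson r of log2(FPKM + 1) among 7855 genes with an entry of their own, were Gpm6a (r = 0.987), Lbh (0.987), Fam123b (0.987), Pja2 (0.982) and Tmem35 (0.980). Gpm6a, a neuronal membrane glycoprotein, was at 258, 174 and 244 FPKM in uninjured and 67.8, 94.2 and 99.5 in injured libraries. Chosen for likeness to Id1 in these same libraries, all 5 stood lower in every injured library than in any uninjured one. Of all genes tested 6.75% did, but the choice itself made this separation likely, so it is no separate result. The genes most like Id2 were Smek1 (r = 0.987), Bcor (0.976), Tnrc18 (0.971), Igf2r (0.970) and Asxl1 (0.965). Bcor, a transcriptional corepressor, was at 4.85, 3.91 and 3.97 FPKM in uninjured and 1.96, 3.43 and 5.05 in injured libraries. Like Id2, it was lowest in injured replicate 1 and its groups overlapped. Unlike those of Id2, its values in injured replicates 2 and 3 lay outside the uninjured range. No gene was on both lists. The correlation between Id1 and Id2 was 0.731, that between Id1 and Id3 0.890 and that between Id2 and Id3 0.739. These are descriptions over 6 libraries that share their groups, and in so few libraries many genes reach high values: among the genes ordered by likeness to Id1, Id2 stood at place 519.

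The BMP pathway beyond Id1 and Id2 was described by a list of 62 genes, 36 of them tested. None passed over all genes tested (0 higher and 0 lower at adjusted p under 0.05), where 0.0125% of all genes did. At an unadjusted p under 0.05 there was 1 higher and 2 lower, where 7.15% of all genes tested were higher and 4.04% lower. Without injured replicate 2, 2 passed as higher and 1 as lower at an adjusted p under 0.05, where 3.43% of all genes were higher and 1.14% lower. With any other single library left out, no gene of the list passed. The list was evenly split, with 18 positive and 18 negative changes and a median change of -0.01 beside 0.16 over all genes. In 5 genes of the list, as in Id1, every injured library lay below every uninjured one (13.9%, where 6.75% of all genes did), and in 1 every injured library lay above (2.78%, where 12.0% of all genes did).

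No ligand, receptor, signal-transducing Smad (Smad1, Smad4 and Smad5) or nuclear cofactor of the list separated the groups the way Id1 did. Of all genes tested 6.75% did, and 0 in lists this short lies near that share. Without injured replicate 2, 1 ligand, 2 receptor or co-receptor genes and 1 Smad or cofactor gene did, where 14.5% of all genes did. Ligands had a median change of -0.32 over 5 genes. Bmp7 and Bmp4, the most abundant ligand genes, were at 8.78, 8.88 and 9.98 against 13.8, 5.999 and 12.8 FPKM and at 4.50, 4.90 and 5.55 against 5.80, 2.43 and 3.26 FPKM in uninjured and injured replicates 1 to 3. The 8 receptor and co-receptor genes had a median of -0.01. The type I receptor Bmpr1a was at 23.3 ± 1.75 and 21.2 ± 5.72 FPKM and the type II receptor Bmpr2 at 21.3 ± 2.47 and 22.2 ± 1.65 (SD, n = 3 each). The 6 genes of signal-transducing Smads and nuclear cofactors had a median of 0.08, with the acetyltransferases Crebbp and Ep300 at 19.5 ± 3.18 and 17.1 ± 1.73 FPKM before and 21.1 ± 1.56 and 17.3 ± 2.77 after injury.

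Separation like that of Id1 was seen in 3 of 12 inhibitors and 2 of 5 other targets, where 6.75% of all genes had it. These counts are small, and a difference between the roles was not tested. Sostdc1, a secreted antagonist of BMP and Wnt signals, was at 23.5, 19.9 and 26.2 FPKM in uninjured and 6.41, 8.88 and 4.58 in injured libraries. Its change was -1.70 (SE 0.28, limma adjusted p = 0.119), and without injured replicate 2 it was -1.90 and passed (adjusted p = 0.0129). Smad6, an inhibitory Smad and itself a BMP target, was at 4.33, 5.63 and 10.1 FPKM against 2.11, 3.73 and 1.98 (change -1.05, SE 0.38). Fstl1, a secreted follistatin-like protein, was at 5.05, 5.82 and 5.80 FPKM against 3.89, 2.86 and 3.80. The homeobox target Msx2, near the low end of the table, was at 0.826, 2.63 and 2.60 FPKM against 0.676, 0.288 and 0.309. Of the other targets that separated this way, the remaining gene is Id3.

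Other inhibitors did not follow Id1. Fst, which encodes follistatin and was chosen after its values were seen, was at 4.14, 1.95 and 2.59 FPKM in uninjured and 29.7, 3.76 and 38.3 in injured replicates 1 to 3. It was thus high in injured replicates 1 and 3 only, with a change of 2.24 (SE 0.81, limma adjusted p = 0.397) that became 3.20 (adjusted p = 0.00617) without injured replicate 2. With any other single library left out, Fst did not pass (limma adjusted p 0.549 to 0.827). Nbl1, another secreted antagonist chosen after its values were seen, passed only without injured replicate 2 too (change 1.11, adjusted p = 0.0401), against 0.56 over all 6. Without it Id1 still did not pass, with a change of -1.03 (adjusted p = 0.0733), and Id2 was at -0.29 (adjusted p = 0.560). The most abundant inhibitor genes were Tob1, at 48.7, 44.7 and 47.6 against 25.5, 25.2 and 55.8 FPKM, and the ubiquitin ligase Smurf2, at 36.0, 15.0 and 14.8 against 19.4, 13.7 and 33.0. Both overlapped between the groups. Of the other targets, the homeobox gene Dlx5 was at 18.5 ± 0.679 and 19.1 ± 3.78 FPKM (SD, n = 3 each). Runx2, a bone and cartilage regulator, was the 1 gene that stood higher in every injured library, at 2.97, 3.25 and 3.59 against 6.99, 3.61 and 9.29 FPKM. Its groups nearly touch, at 3.59 and 3.61 FPKM (limma adjusted p = 0.466).

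**Figure D4:**
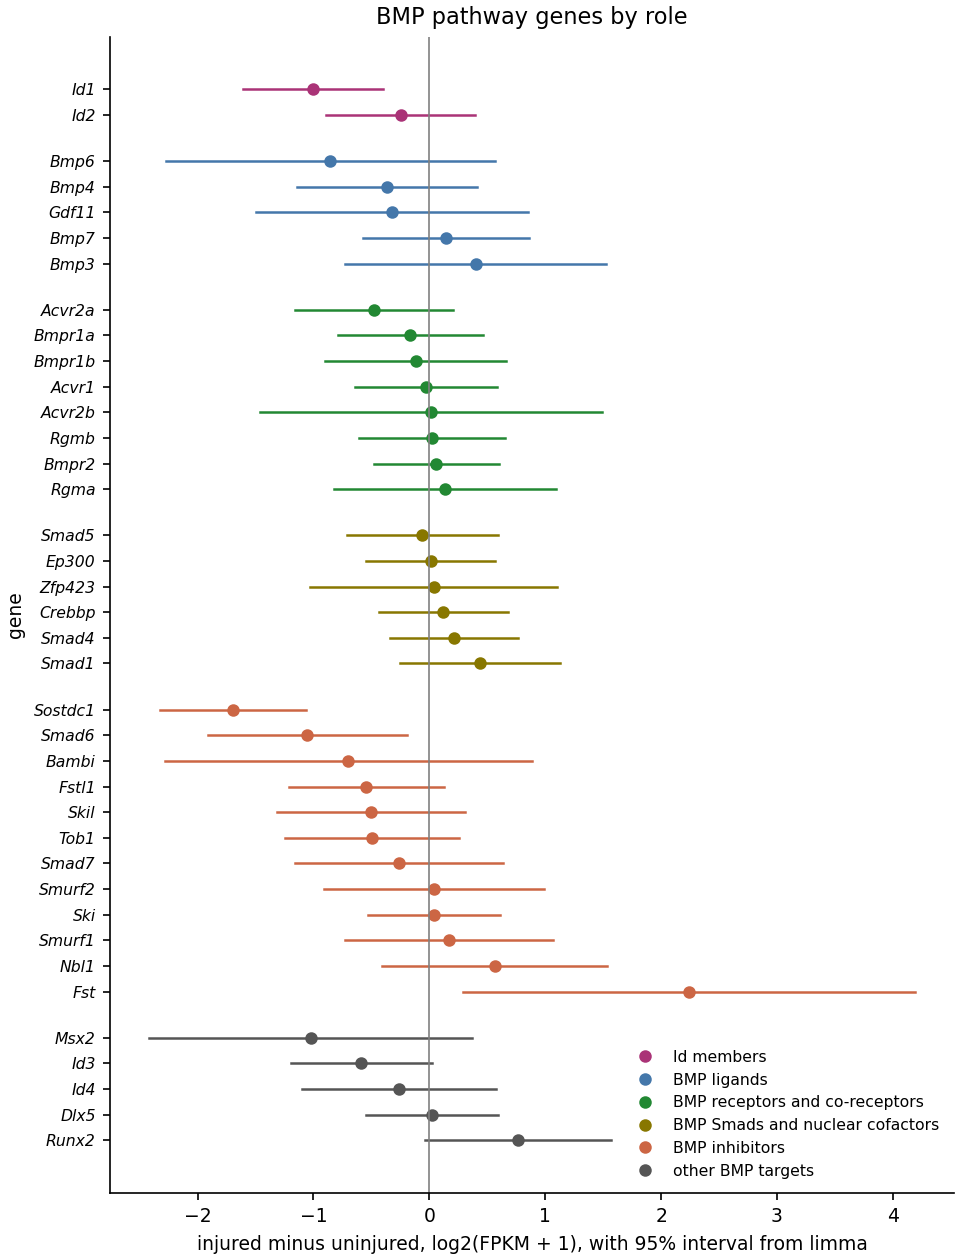
Change in log2(FPKM + 1), injured less uninjured (horizontal axis), of Id1, Id2 and the 36 tested genes of the BMP pathway list, with 95% intervals from limma, coloured by role. Receptors, signal-transducing Smads and cofactors lie between -0.48 (Acvr2a) and 0.44 (Smad1), and inhibitors, which include Smad6 at -1.05 and Smad7 at -0.26, run from -1.70 for Sostdc1 to 2.24 for Fst.

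**Figure D5:**
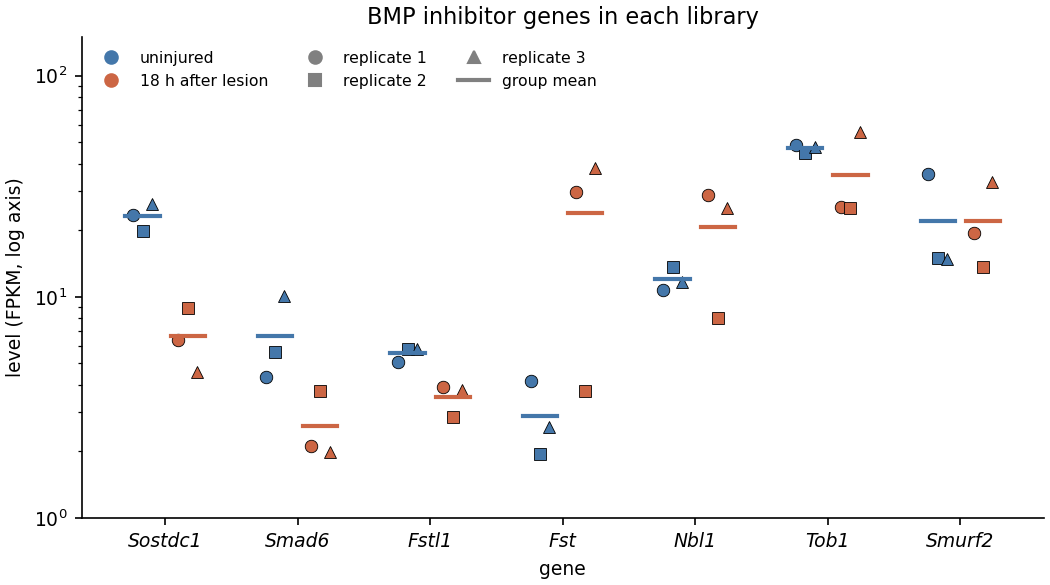
Levels of BMP inhibitor genes in FPKM (vertical axis, logarithmic) in the 3 uninjured (blue) and 3 injured (orange) libraries; symbols mark the replicate and bars the group means. Sostdc1, Smad6 and Fstl1 are lower in every injured library, while Fst is at 29.7 and 38.3 FPKM in injured replicates 1 and 3 and at 3.76 in injured replicate 2.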

How the data were processed

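PolyA RNA of sorted cells was made into Nextera XT libraries, per the labels' protocols. The authors deposited 1 value per gene and library, read as FPKM since the submitters' processing notes list Cuffdiff and the table has the gene heading that tool writes. These notes also list FastQC, TopHat and the mm9 build. Their versions, the annotation, the gene filter and any scaling between libraries are not given in the sources used here. Joined symbols stand in 131 entries, which were not used for single genes. No steps of whole reads were found: at most 6.38% of the ratios of genes under 1 FPKM agreed within 1% in any of 15 pairs of libraries, so no counting intervals were computed. The Mir703 entry took 22.0% to 25.4% of summed FPKM in uninjured and 8.01% to 18.6% in injured libraries.

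The 7987 genes whose mean reached 1 FPKM were fitted in limma 3.58.1 (R 4.3.3) on log2(FPKM + 1) values, using trend and robust steps, no covariate, and Benjamini-Hochberg adjustment at 0.05. The pseudocount of 1 understates changes of low genes. The script was tested on simulated data. Nothing in the labels says that the pools of one group came from separate days or litters. The p-values of the reported fit therefore measure the spread between these pools. The members and gene lists were chosen with earlier results of these data known. From each list, genes were named that passed, that did not overlap between groups, or that were the 2 most abundant, plus the 5 genes most like each member. The alternatives were leaving out each library, a replicate block, other filters, pseudocounts and scalings, limma without trend and robust steps, and library weights; list counts without injured replicate 2 and ratios to Trp63 were added after the data were seen. Figures were drawn with matplotlib 3.10.9.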

Additional observations from a re-analysis of the deposited data

How the results depend on the processing

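Id1 and Id2 kept a negative change and did not pass under any of 16 alternatives each. The Id1 change ranged from -1.19 to -0.83 (adjusted p 0.0733 to 0.709) and the Id2 change from -0.43 to -0.02 (adjusted p 0.560 to 0.984). The Id2 change was -0.02 without injured replicate 1. The difference of the Id1 and Id2 changes ranged from -0.81 to -0.72 over 12 alternatives. The median of the BMP pathway list ranged from -0.19 to 0.02 over 14, within its replicate SD of 0.22 of the reported value. Upper-quartile scaling moved the median of all genes from 0.16 to -0.01, and against it Id1 lay at -1.18 and Id2 at -0.42. Rescaling without Mir703 gave -1.16 for Id1.

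The number of genes called was 1 as reported, 221 with a replicate block, 2 with a pseudocount of 0.1, 3 with upper-quartile scaling, 4 with quantile normalization, 6 without trend and robust steps and 134 with library weights. It ranged from 1 to 365 with 1 library left out: 3, 3 and 2 without uninjured replicates 1, 2 and 3, and 5, 365 and 1 without injured replicates 1, 2 and 3. The labels do not say whether replicate numbers pair the libraries. Deviations from the group means correlated by -0.09, 0.07 and -0.08 between libraries numbered 1, 2 and 3, and not every library correlated best with its own number. Deviations from a mean of 3 pools are too constrained for these correlations to decide on a pairing. With the replicate block the adjusted p was 0.169 for Id1 and 0.869 for Id2. Sostdc1 and Fst passed with the block (adjusted p 0.000216 and 1.3e-06) and with library weights (0.0139 and 0.0318), and no other gene of the BMP list did. Fst did so although its groups overlapped and its limma adjusted p was 0.397 in the reported fit. The block p-values of Id1 and Id2 follow from a variance pooled over genes, not from each gene's own spread. Passing with the block therefore carries little weight. With 3 pools a group and unknown depth, a change of the size seen for Id2 cannot be separated from 0.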

Other observations

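The partners and rivals of Id1 and Id2 were described from lists chosen with earlier results known, and none of their genes passed with limma over all genes tested. The 3 E proteins that Id proteins bind had a median change of 0.19 beside 0.16 over all genes, with no separation of the groups and 0 genes at an unadjusted p under 0.05. Over all genes tested 7.15% were higher and 4.04% lower at that p, and in 12.0% and 6.75% every injured library lay above or below every uninjured one, which are the shares to set beside each count here. Tcf4, the most abundant by level in uninjured libraries, was at 26.7, 27.0 and 26.4 FPKM before and at 16.1, 25.2 and 35.8 after injury, and Tcf12 was at 32.8, 13.7 and 14.8 against 24.9, 17.5 and 23.4. In injured libraries Tcf4, like Id1 and Id2, was lowest in replicate 1 and highest in replicate 3. Among 12 tissue-specific and repressor helix-loop-helix genes (median 0.12, with 1 higher and 2 lower at an unadjusted p under 0.05, where 7.15% and 4.04% of all genes were) the Notch effectors Hes1 and Hey1 stood below every uninjured library in all injured ones, at 87.0 ± 12.3 and 108 ± 13.3 FPKM before and 55.1 ± 7.86 and 69.4 ± 6.92 after injury (SD, n = 3 each). The neurogenic factor Neurod1 stood above, at 1.30, 2.41 and 2.30 against 5.30, 9.71 and 2.87 FPKM, highest in injured replicate 2, the library with the high neuronal precursor markers. Bhlhe40, a repressor of clock genes, overlapped between the groups, at 79.5, 57.0 and 65.2 against 88.9, 31.0 and 156 FPKM.

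Of 13 other regulators and partners of Id proteins (median 0.12, with 0 higher and 1 lower at an unadjusted p under 0.05, near the 4.04% of all genes that were lower), Usp1, the protease that removes ubiquitin from Id proteins, stood higher in every injured library, at 9.11, 7.85 and 6.91 against 10.9, 9.28 and 16.2 FPKM. The Usp1 groups nearly touch, at 9.11 and 9.28 FPKM. Hif1a, the hypoxia-inducible factor, stood lower, at 50.5, 54.5 and 64.2 against 26.9, 29.8 and 47.3. Egr1, an immediate early regulator of Id1, was at 281, 260 and 251 FPKM before and 159, 122 and 414 after injury and overlapped. In the TGF-beta and activin branch 16 genes had a median of 0.16, with 1 higher and 3 lower at an unadjusted p under 0.05, where 7.15% and 4.04% of all genes were. Ltbp4, which anchors latent TGF-beta in the matrix, was at 17.04, 21.7 and 26.6 against 9.92, 12.5 and 8.56 FPKM, and its change of -1.002 (SE 0.27) was of the size of that of Id1. The co-receptor Tgfbr3, at 6.32 ± 0.851 and 2.75 ± 0.438 FPKM, and the secreted target Ctgf, at 37.4 ± 6.39 and 23.1 ± 6.996, also stood lower in every injured library (SD, n = 3 each). The relative of Ltbp4, Ltbp1, stood higher, at 2.25, 2.09 and 1.17 against 7.22, 4.10 and 5.81 FPKM. The corepressor Tgif1, at 22.0, 15.8 and 21.5 against 55.4, 16.0 and 87.8 FPKM, was high in injured replicates 1 and 3 only, as Fst was, and passed without injured replicate 2 (change 1.78, adjusted p = 0.0279). The growth regulator Myc, chosen after its values were seen, also passed in limma without that library (change 1.21, adjusted p = 0.0486). Over all 6 its change was 0.68 (adjusted p = 0.575). Each was the only gene of its list to pass without that library (1 of 16 and 1 of 13), where 3.43% of all genes passed as higher. These list counts were added after the data were seen. For Tgif1 and Myc, fits with other libraries left out are not reported here.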
